A study of Mus musculus with 10 samples.

Results

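The membrane used here carried 105 receptor genes among its 597 named genes, and they are described across splenocytes of CD22DE12 transgenic and wild-type mice. A gene belonged to the group when its printed name held the word receptor and did not hold ligand, antagonist, serotonin or 5-hydroxytryptamine. Of the 111 names that met this, 6 were left out because they named a gene set aside by the rule (Cd14, Cd22, Cd40, Csf2ra, Ifngr2, Il7r or Il9r). The rule itself uses no measured value, though it was written with earlier results of these data known. The names were sorted into 10 classes, and 8 of the 105 were kept in a class of their own because they are signalling or other proteins whose name only mentions a receptor, such as the adaptor Traf3.

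Receptors are the proteins through which a cell reads its surroundings. Cytokine receptors, receptor tyrosine kinases and the tumour necrosis factor receptor family sit in the cell membrane and pass a signal to kinases or adaptors inside, G protein-coupled receptors act through G proteins, ligand-gated channels open to ions, and nuclear hormone receptors are transcription factors switched by small lipophilic ligands. In the spleen, cytokine, chemokine and adhesion receptors place and sustain lymphocytes and myeloid cells, and the receptors for erythropoietin, transferrin and stem cell factor serve red cell precursors. Receptors of the synapse are known chiefly from the nervous system.

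The data were hybridisations of radioactively labelled cDNA to nylon membranes with 2 spots per gene. There were 7 arrays from mice labelled CD22DE12 transgenic and 3 from wild-type FVB mice, all on the FVB background and killed at 6 weeks of age, and the RNA came from the mixed cells of the spleen. The labels name no promoter for the transgene. They also do not say that every array had its own mouse, and the p-values therefore describe the scatter of these samples alone, which may be technical. In such mixed cells, fewer cells of a type and less RNA per cell cannot be told apart.

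The arrays differed in brightness. The median receptor gene lay 11.9 to 17.9 grey levels above its local background on 8 arrays, but 4.08 and 4.32 grey levels above it on transgenic replicates 6 and 7. These arrays had a later hour in their file headers than the others and are called the second sitting here. It held no wild-type array. Between 89 and 100 of the 105 receptor genes were above background on an array. All 5 measured B cell markers, all 6 myeloid markers and all 3 erythroid markers were above background on all 10 arrays and 4 of 5 T cell markers were, while Gzmb, the only NK marker on the membrane, was above background on 4. All levels given here are log2 signals after normalization, with an offset of 50 grey levels in every signal, and all differences are transgenic minus wild type on that scale. The added level understates differences, those of dim genes most. Levels of different genes are not compared, because each probe has its own strength.

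Most receptor genes gave a signal above their own local background. A gene counted as above background where either of its spots on that array was marked as found. By this measure 68 of the 105 receptor genes (64.8%) were above background on all 10 arrays, against 59.8% of all named genes, 32 were so on 5 to 9 arrays and 5 on fewer than 5. The 8 proteins whose name only mentions a receptor were all above background on all 10 arrays. So were 11 of 13 adhesion, uptake and matrix receptors, 8 of 10 nuclear hormone receptors, 12 of 17 receptor tyrosine kinases, 14 of 21 cytokine and chemokine receptors, 4 of 6 members of the tumour necrosis factor receptor family, and 2 of 3 receptors of the transforming growth factor beta, activin and bone morphogenetic protein group. Ligand-gated channels had 4 of 7 and G protein-coupled receptors 5 of 18. The classes were not tested against each other.

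The 5 receptor genes found on fewer than 5 arrays were Adora1, an adenosine receptor, and Sstr2, a somatostatin receptor, on 4 arrays each, Grin2a, a subunit of the NMDA glutamate receptor, on 4, Epha3, a receptor for ephrins, on 3, and an entry printed only as G-protein-coupled receptor on 3. Of these, Adora1 was above background on 4 of 7 transgenic and on 0 of 3 wild-type arrays. Its mean log2 signal was 5.77 on the transgenic and 5.73 on the wild-type arrays, 1.02-fold with the offset included. Limma gave it an adjusted p of 0.972. A stricter limit, 2 SD of the spots without a gene name above local background, was passed on all 10 arrays by 13 receptor genes (12.4%) and by 86 of the 597 genes (14.4%). How many receptor genes count as measured therefore depends on the limit.

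**Figure D1:**
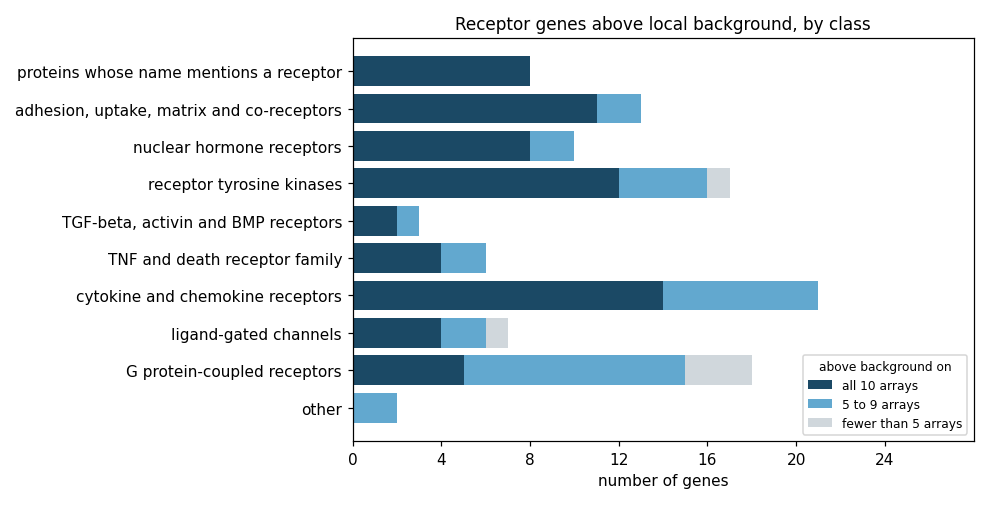
Number of receptor genes in each class (x axis) that were above local background on all 10 arrays, on 5 to 9 arrays or on fewer than 5, with classes ordered by the share found on all 10. All 8 proteins whose name only mentions a receptor, 11 of 13 adhesion, uptake and matrix receptors and 5 of 18 G protein-coupled receptors were found on all 10 arrays.

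The comparison asked which receptor genes differed between transgenic and wild-type splenocytes. None passed the test. Limma with Benjamini-Hochberg adjustment over all 597 genes called 0 of the 105 receptor genes, with a smallest adjusted p of 0.562, and 0% of all genes. At an unadjusted limma p under 0.05 there were 4 receptor genes (3.81%), all lower in the transgenic group, where 7.20% of all genes lay past that limit 4.86% with a lower and 2.35% with a higher value. The exact permutation test, two-sided and run on 120 splits, gave an unadjusted p under 0.05 for 4 receptor genes (3.81%), against 4.86% of all genes, and an adjusted p of at least 0.765. The 2 groups did not overlap for 1 receptor gene (0.952%), which was lower in the transgenic group, against 1.68% of all genes in either direction and 1.17% lower. The 105 receptor genes kept thus stood at or below the share of all genes on each of these counts. Cd22 and Cd40, lower, and Csf2ra, higher, also had an unadjusted limma p under 0.05, but the rule left them out.

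The differences were small on this scale and lay on both sides of 0. The transgenic mean was higher for 60 and lower for 45 of the 105 receptor genes, so that 42.9% were lower against 48.2% of all genes. The median difference was 0.006 and the range -0.14 to 0.18, where the median of all genes was 0.002. This split depends on the scaling. With each array centred on the housekeeping genes of the membrane it was 93 higher and 12 lower, with a median of 0.065 that matched the shift of all genes to 0.065. Without background correction it was 34 higher and 71 lower. The receptor median was then -0.051, which all genes did not share, with a median of -0.003. With the sitting as a block it was 52 higher and 53 lower, and within the first sitting 51 higher and 54 lower. The 95% interval of a receptor gene reached 0.11 to either side of its difference in the median case, and the interval bound farthest from 0 was 0.58, for Il2rg. The median SD of a receptor gene was 0.07 between transgenic and 0.06 between wild-type arrays.

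**Figure D2:**
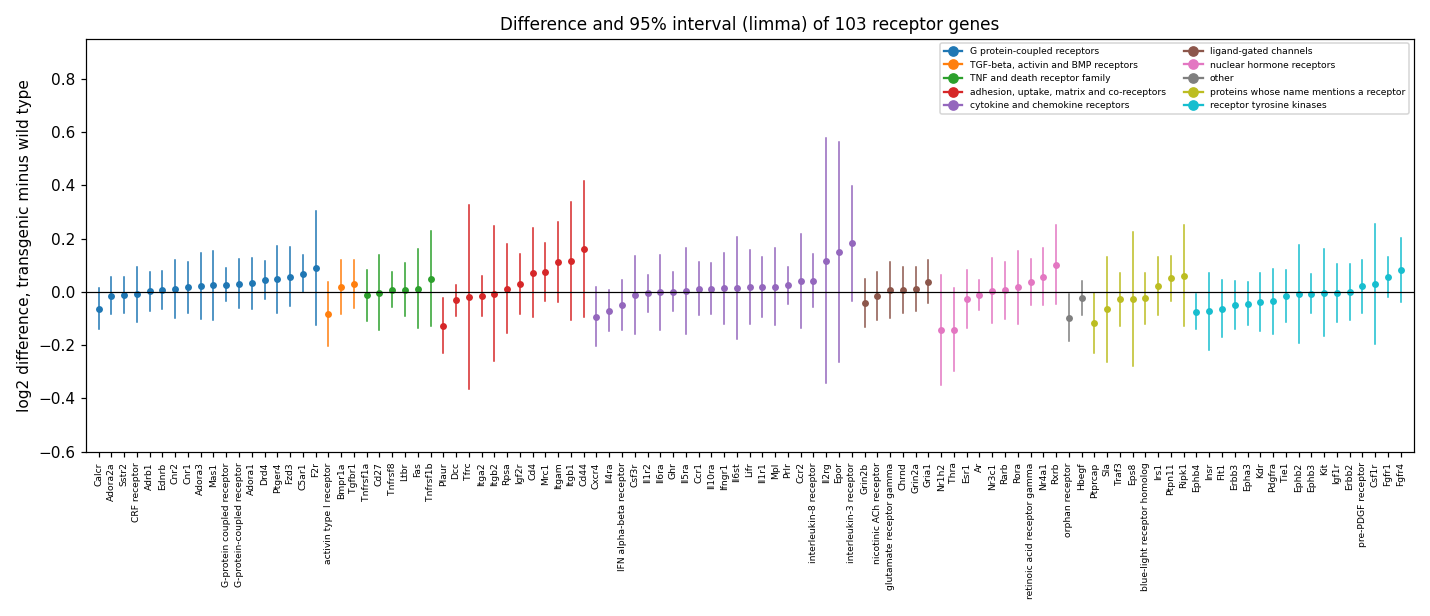
Difference in log2 signal, transgenic minus wild type, with its 95% interval from limma (y axis), for 103 of the 105 receptor genes, grouped by class in colour and sorted within the class (x axis). The differences run from -0.14 to 0.18 around a median of 0.006, and none passed the adjusted threshold.

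The 4 receptor genes at an unadjusted limma p under 0.05 came from 4 different classes. Plaur encodes the urokinase receptor, which holds a protease at the surface of myeloid and other migrating cells. Its log2 signal was 6.14, 6.00 and 5.91 on the wild-type arrays and had a lowest, median and highest value of 5.86, 5.87 and 5.97 on the transgenic arrays. The transgenic values were all under the wild-type mean, but transgenic replicates 1 and 7 lay above wild-type replicate 3, so the groups overlapped. The difference was -0.13 with a standard error of 0.047 (limma unadjusted p = 0.0220, adjusted p = 0.562, exact permutation p = 0.025). It ran from -0.18 without wild-type replicate 3 to -0.06 without wild-type replicate 1.

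Ephb4, a receptor tyrosine kinase for ephrin-B2 known from venous endothelium, was the receptor gene whose groups did not overlap. Its signal was 5.86, 5.87 and 5.84 on the wild-type arrays and 5.74, 5.80 and 5.83 as lowest, median and highest on the transgenic arrays. The highest transgenic array therefore lay just below the lowest wild-type array. The difference was -0.07 with a standard error of 0.030 (limma unadjusted p = 0.0299, adjusted p = 0.606, exact permutation p = 0.0167). It was above background on 6 of 7 transgenic and all 3 wild-type arrays, and on 0 arrays by the stricter limit. With arrays centred on the housekeeping genes its difference was -0.01. In grey levels above local background its spots measured 10.6, 13.6 and 9.21 on the wild-type arrays and 7.44 ± 2.93 (SD, n = 5) on the transgenic arrays of the first sitting.

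Ptprcap encodes a small membrane protein of lymphocytes that is bound to the phosphatase CD45. Its signal was 6.18, 6.05 and 6.22 on the wild-type arrays and 5.95, 6.01 and 6.14 as lowest, median and highest on the transgenic arrays. The groups overlapped through wild-type replicate 2. The difference was -0.12 with a standard error of 0.051 (limma unadjusted p = 0.0412, adjusted p = 0.627, exact permutation p = 0.0583), and first-sitting arrays alone gave -0.17.

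The entry printed only as orphan receptor, which could not be tied to a gene, had signals of 5.93, 5.90 and 6.00 in the wild type and 5.80, 5.83 and 5.93 as lowest, median and highest in the transgenic group. Its groups overlapped, and it was above background on 6 of 7 transgenic arrays. The difference was -0.10 with a standard error of 0.041 (limma unadjusted p = 0.0375, adjusted p = 0.609, exact permutation p = 0.05). With arrays centred on the housekeeping genes it was -0.02.

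The offset sets the size of these 4 differences. With no offset they were -0.69 for Plaur, -0.65 for Ephb4, -0.66 for the orphan receptor and -0.49 for Ptprcap, and again 0 receptor genes passed the adjusted threshold. The count of 4 also depended on single arrays. It was 1 without transgenic replicate 3, 2 without wild-type replicate 1, both of them higher in the transgenic group, and 7 without wild-type replicate 3. With arrays centred on the housekeeping genes it was 0, and without background correction it was 1.

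**Figure D3:**
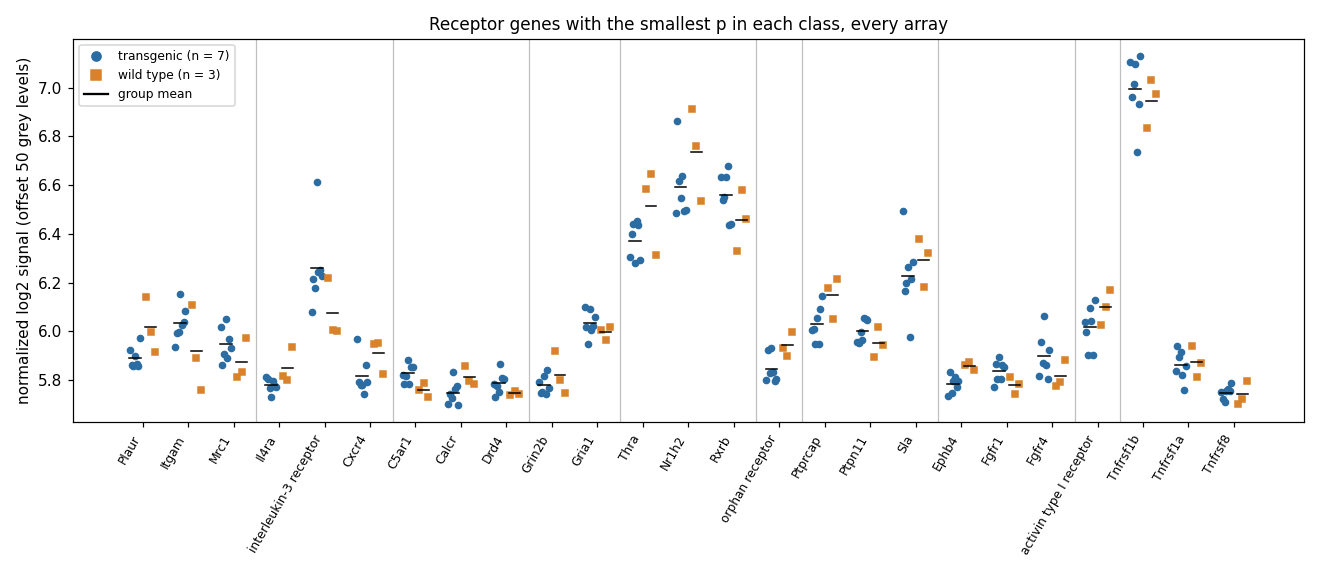
Normalized log2 signal with an offset of 50 grey levels (y axis) on each of the 7 transgenic and 3 wild-type arrays for receptor genes with the smallest p in their class (x axis), with group means as black bars and vertical lines between classes. Only for Ephb4 do all 7 transgenic values, 5.74 to 5.83, lie below all 3 wild-type values.

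Cytokine and chemokine receptors were the largest class, with a higher transgenic mean in 15 of 21 members, a lower one in 6 and a median difference of 0.01. Without background correction 7 were higher and 14 lower. None of the 21 had an unadjusted limma p under 0.05. Il4ra, the chain of the interleukin 4 receptor that drives class switching and B cell survival, had signals of 5.82, 5.80 and 5.94 in the wild type and 5.73, 5.77 and 5.81 as lowest, median and highest in the transgenic group. Wild-type replicate 3 stood above the other 9 arrays, and without it the difference of -0.07 was -0.03. The exact permutation p was 0.0333, with a limma adjusted p of 0.714.

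The interleukin-3 receptor, a growth factor receptor of early myeloid cells and mast cells, had signals of 6.22, 6.01 and 6.00 in the wild type and 6.08, 6.23 and 6.61 as lowest, median and highest in the transgenic group. Its difference of 0.18 had the highest value among the 105, and a standard error of 0.097 (limma adjusted p = 0.798). It ran from 0.12 without transgenic replicate 4 to 0.26 without wild-type replicate 1. Cxcr4, the receptor for the chemokine that holds precursors in bone marrow and guides B cells, had 5.95, 5.95 and 5.83 in the wild type and 5.74, 5.79 and 5.97 in the transgenic group. Its highest value of all lay on a transgenic array although the difference was -0.09. Without background correction the direction of Cxcr4 turned, to 0.02.

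The other 18 members of the class had differences between -0.05 and 0.15. The receptor chain shared by interleukin 6 family cytokines, Il6st, stood at 0.02, with the interleukin 6 binding chain Il6ra at -0.002 and the leukaemia inhibitory factor receptor Lifr at 0.02. The interleukin 10 receptor chain Il10ra stood at 0.01, as did the interferon gamma receptor chain Ifngr1, and an entry printed as interferon alpha-beta receptor at -0.05. Among chemokine receptors of monocytes, Ccr2 stood at 0.04 and Ccr1 at 0.01. Ccr1 was above background on 3 of 7 transgenic and 2 of 3 wild-type arrays.

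The adhesion, uptake, matrix and co-receptor class had 8 of 13 members higher and 5 lower, with a median of 0.01, and Plaur as its lowest member. Itgam, the integrin chain CD11b of myeloid cells, had signals of 6.11, 5.89 and 5.76 in the wild type and 5.94, 6.03 and 6.15 as lowest, median and highest in the transgenic group. The wild-type arrays spanned more than the transgenic ones, and the difference of 0.11 ran from 0.03 to 0.21 when 1 array was left out. Mrc1, the macrophage mannose receptor, had 5.81, 5.83 and 5.97 in the wild type and 5.86, 5.93 and 6.05 in the transgenic group. Its difference of 0.07 turned to -0.06 without background correction.

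Cd44, the hyaluronate receptor of activated leukocytes, had the highest difference of the adhesion and uptake class, 0.16, with a 95% interval of -0.09 to 0.42. Wild-type replicate 1 lay at 6.23, below all other arrays, and the difference was 0.0035 without it. Its wild-type spread of 0.28 (SD, n = 3) was larger than the difference. The integrin chains Itgb1 and Itgb2 stood at 0.11 and -0.01 and the T cell co-receptor Cd4 at 0.07.

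Receptor tyrosine kinases had 13 of 17 members lower and 4 higher, with a median of -0.01. This direction did not hold across scalings: 9 of 17 were lower with median centring or cyclic loess, and 3 of 17 with centring on the housekeeping genes. Besides Ephb4, the members with the smallest p were 2 fibroblast growth factor receptors. Fgfr1 had signals of 5.81, 5.74 and 5.79 in the wild type and 5.77, 5.85 and 5.90 in the transgenic group, with overlapping values and a difference of 0.06. That of Fgfr1 turned to -0.03 without background correction. Fgfr4 had 5.78, 5.79 and 5.88 in the wild type and 5.80, 5.87 and 6.07 as lowest, median and highest in the transgenic group, a difference of 0.08.

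Csf1r, the receptor that sustains macrophages, was above background on all 10 arrays and stood at 0.03 with a 95% interval of -0.19 to 0.26. Kit, the stem cell factor receptor of blood precursors and mast cells, stood at -0.004 with an interval of -0.17 to 0.16. The endothelial receptors Flt1, Kdr and Tie1 stood at -0.06, -0.04 and -0.02. All 3 belong to the endothelial marker list, which had a mean log2 signal of 5.94 to 6.12 on transgenic and 6.08 to 6.15 on wild-type arrays and 4 of 5 members lower. The part of the endothelial share in these values, and in that of Ephb4, was not tested.

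Nuclear hormone receptors had 6 of 10 members higher and 4 lower, with a median of 0.01. Thra, the thyroid hormone receptor alpha, had signals of 6.59, 6.65 and 6.31 in the wild type and 6.28, 6.40 and 6.45 as lowest, median and highest in the transgenic group. Wild-type replicate 3 lay within the transgenic range and the other two wild-type arrays above it. The difference was -0.14 with a standard error of 0.070 (limma unadjusted p = 0.0681, adjusted p = 0.714), and it ran from -0.25 without wild-type replicate 3 to -0.07 without wild-type replicate 2.

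Nr1h2, the liver X receptor beta that senses oxysterols, had 6.91, 6.76 and 6.53 in the wild type and 6.48, 6.55 and 6.86 in the transgenic group. Its difference, -0.14, was the lowest of all receptor genes, yet its groups overlapped through transgenic replicate 2 and wild-type replicate 3. It was -0.06 without wild-type replicate 1 and -0.24 without wild-type replicate 3. Rxrb, a retinoid X receptor that pairs with it and with the thyroid hormone receptor, had 6.33, 6.58 and 6.46 in the wild type and 6.44, 6.55 and 6.68 in the transgenic group, a difference of 0.10. That of Rxrb was 0.04 without wild-type replicate 1 and 0.16 without wild-type replicate 2, and with the sitting as a block it was 0.15 (limma unadjusted p = 0.0240, with 0 receptor genes called). Nr3c1, the glucocorticoid receptor, stood at 0.005 with an interval of -0.12 to 0.13, and Nr4a1, an early gene of antigen receptor signalling, at 0.06.

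G protein-coupled receptors had 14 of 18 members higher and 4 lower, with a median of 0.02. Without background correction 8 were higher and 10 lower, and with housekeeping centring all 18 were higher. C5ar1, the receptor for the complement fragment C5a on neutrophils and macrophages, had signals of 5.76, 5.79 and 5.73 in the wild type and 5.78, 5.82 and 5.88 as lowest, median and highest in the transgenic group. Only wild-type replicate 2 reached into the transgenic range. C5ar1 was above background on 6 of 7 transgenic and 1 of 3 wild-type arrays. The difference was 0.07 with a standard error of 0.031 (limma unadjusted p = 0.0510, adjusted p = 0.668, exact permutation p = 0.0333), and 0.73 with no offset.

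The myeloid marker list, whose members do not include C5ar1, had a mean log2 signal of 6.42 to 6.61 on transgenic and 6.40 to 6.51 on wild-type arrays, with 4 of 6 members higher and 0 called. At an unadjusted limma p under 0.05, 1 of the 6 was higher, Csf2ra at 0.12, where 2.35% of all genes were. At that limit 1 was lower, Fes at -0.11, where 4.86% of all genes were. The list includes Itgam, Csf1r and Csf3r of the receptor genes. The part of the myeloid share in the values of C5ar1, Itgam and Mrc1 was not tested.

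Calcr, the calcitonin receptor, had signals of 5.86, 5.80 and 5.79 in the wild type and 5.70, 5.74 and 5.83 as lowest, median and highest in the transgenic group, a difference of -0.06. It turned to 0.0046 with housekeeping centring and was above background on 4 of 7 transgenic arrays. The dopamine receptor Drd4 had 5.74, 5.75 and 5.74 in the wild type and 5.73, 5.79 and 5.86 in the transgenic group, a difference of 0.04 that turned to -0.04 without background correction. The thrombin receptor F2r, found on all 10 arrays, stood at 0.09 with a 95% interval of -0.13 to 0.30. The cannabinoid receptor Cnr2, which is known from B cells and macrophages, stood at 0.01, and the adenosine receptor Adora2a of lymphocytes at -0.01.

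Ligand-gated channels had 4 of 7 members higher and 3 lower, with differences between -0.04 and 0.04. Grin2b, a subunit of the NMDA glutamate receptor, had signals of 5.92, 5.80 and 5.75 in the wild type and 5.74, 5.77 and 5.84 in the transgenic group. Gria1, a subunit of the AMPA glutamate receptor, had 6.01, 5.97 and 6.02 in the wild type and 5.95, 6.02 and 6.10 in the transgenic group. The groups overlapped for both, at differences of -0.04 and 0.04, and that of Grin2b was 0.006 without wild-type replicate 1.

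The tumour necrosis factor receptor family had 4 of 6 members higher and 2 lower, with differences between -0.01 and 0.05. Tnfrsf1b, the second receptor for tumour necrosis factor and one carried mainly by leukocytes, had signals of 6.83, 7.03 and 6.97 in the wild type and 6.74, 7.01 and 7.13 as lowest, median and highest in the transgenic group. Tnfrsf1a, the receptor that can start cell death, had 5.94, 5.81 and 5.87 in the wild type and 5.76, 5.86 and 5.94 in the transgenic group. Tnfrsf8, the activation antigen CD30, had 5.70, 5.72 and 5.80 in the wild type and 5.71, 5.75 and 5.79 in the transgenic group and was above background on 6 of 7 transgenic and 1 of 3 wild-type arrays.

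In each of these 3 genes the wild-type arrays lay within or around the transgenic range. Without wild-type replicate 1 the differences were -0.004 for Tnfrsf1b, 0.02 for Tnfrsf1a and -0.01 for Tnfrsf8, each of the other sign than with all arrays. The death receptor Fas stood at 0.01 with an interval of -0.14 to 0.16, and Cd27, a receptor of memory lymphocytes, at -0.004 with an interval of -0.14 to 0.14.

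The 3 receptors of the transforming growth factor beta group were an entry printed as activin type I receptor, Tgfbr1 and Bmpr1a. The activin entry had signals of 6.03, 6.10 and 6.17 in the wild type and 5.91, 6.04 and 6.13 as lowest, median and highest in the transgenic group, a difference of -0.08 between overlapping groups. Tgfbr1, the signalling receptor for transforming growth factor beta, stood at 0.03 and Bmpr1a, a receptor for bone morphogenetic proteins, at 0.02.

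Among the 8 proteins whose name only mentions a receptor, 3 were higher and 5 lower. Ptpn11, the phosphatase SHP-2 that acts below growth factor and cytokine receptors, had signals of 5.89, 6.02 and 5.94 in the wild type and 5.95, 6.00 and 6.05 in the transgenic group, a difference of 0.05 that ran from 0.02 without wild-type replicate 1 to 0.08 without wild-type replicate 2. Sla, an adaptor that lowers antigen receptor signalling, had 6.38, 6.18 and 6.32 in the wild type and 5.98, 6.21 and 6.49 in the transgenic group, a difference of -0.07 that ran from -0.12 to -0.02 when 1 array was left out and turned to 0.03 with housekeeping centring. Groups overlapped in both. Traf3, a negative regulator of B cell survival signals, stood at -0.03, and Ripk1, a kinase of death receptor signalling, at 0.06. Eps8, a substrate of the epidermal growth factor receptor, stood at -0.03, but its local background reached 130 grey levels, the only value over 100 among the receptor genes.

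Lymphocyte markers are given beside these values. All 5 members of the B cell list had a lower transgenic mean, with a mean log2 signal of 6.37 to 6.59 on transgenic and 6.51 to 6.74 on wild-type arrays, and 0 were called. At an unadjusted limma p under 0.05, 3 of the 5 were lower, where 4.86% of all genes were. In summed grey levels above background the list measured 231 to 303 on the transgenic arrays of the first sitting and 267 to 305 on the wild-type arrays. The T cell list had a lower transgenic mean in 4 of 5 members, with a mean log2 signal of 6.08 to 6.24 on transgenic and 6.19 to 6.21 on wild-type arrays, and 0 called. The values of both lists overlapped between the groups. The part of the B cell and T cell shares in the values of Ptprcap, Il4ra and Cxcr4, which lymphocytes are known to carry, was not tested.

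The residual SD between arrays was largest for 3 receptor genes, which were picked out after their values were seen. Il2rg, the chain shared by the receptors for interleukin 2 and related cytokines, ran from 6.53 to 7.40 over the transgenic arrays and had 6.47, 6.85 and 7.10 on the wild-type arrays, a residual SD of 0.34 against a difference of 0.12. Epor, the erythropoietin receptor, had 6.06, 6.56, 6.71, 6.14, 6.84, 6.62 and 6.00 on transgenic replicates 1 to 7 and 6.38, 6.33 and 6.09 on the wild-type arrays. Tfrc, the transferrin receptor that takes up iron, had 5.81, 6.16, 6.60, 5.83, 6.30, 6.25 and 5.86 on the same transgenic arrays.

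The same 4 transgenic arrays, replicates 2, 3, 5 and 6, were the highest for Epor and for Tfrc, and replicates 1, 4 and 7 the lowest. The wild-type arrays stood at 6.12, 6.12 and 6.17 for Tfrc, above the 3 low transgenic arrays and close to replicate 2. Klf1, a transcription factor of red cell precursors that is no receptor, had its highest transgenic values, 7.15, 6.97, 6.65 and 6.48, on replicates 5, 3, 2 and 6, and its lowest, 6.11 and 6.10, on replicates 4 and 7. Nfe2, which is no receptor either, shared this order in most places, over a narrower range. It ran only from 6.12 to 6.45 on the transgenic arrays, highest on replicates 5 and 3 and lowest on replicates 7 and 1. Replicates 6 and 4 both stood at 6.37, above replicate 2, at 6.33. The erythroid list of Epor, Klf1 and Nfe2 had a mean log2 signal of 6.07 to 6.81 on transgenic and 6.20 to 6.44 on wild-type arrays. The part of the erythroid share in the spread of Epor and Tfrc was not tested. The group differences of Epor and Tfrc were 0.15 and -0.02, with 95% intervals of -0.26 to 0.56 and -0.37 to 0.33.

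**Figure D4:**
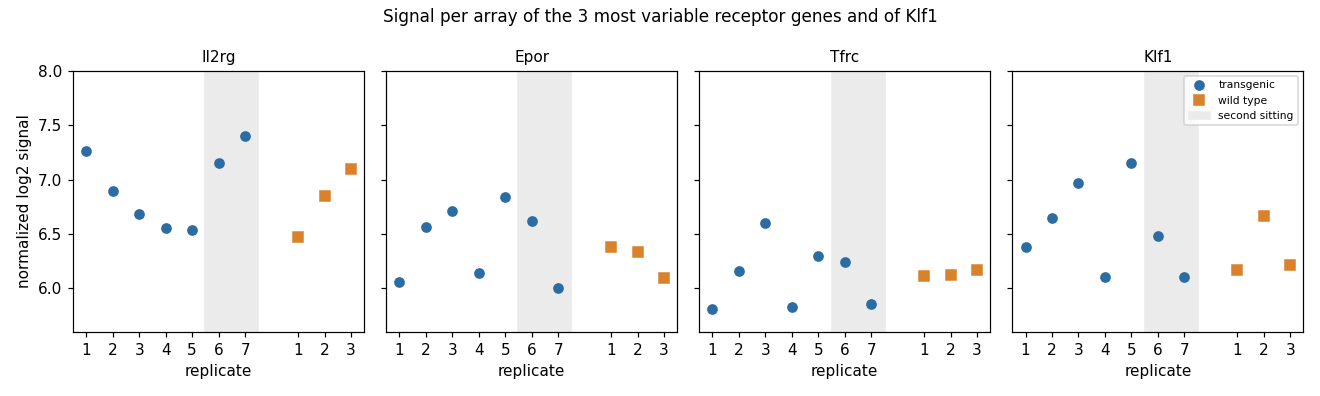
Normalized log2 signal (y axis) on each array, by replicate number (x axis), of the 3 receptor genes with the largest residual SD and of Klf1. Epor and Tfrc were highest on transgenic replicates 2, 3, 5 and 6, and the shaded arrays of the second sitting held both high and low values.

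The genes on either side of the receptors were read from companion lists. The 33 receptor ligands split into 16 with a higher and 17 with a lower transgenic mean and 0 were called, with 11 above background on all 10 arrays. The ligands with the smallest p were Lif, leukaemia inhibitory factor, at -0.18 with a standard error of 0.066 (limma adjusted p = 0.562), and Inhba, the activin subunit, at 0.10 (limma adjusted p = 0.606). Of 11 signalling proteins that act next to receptors, 5 were higher and 6 lower and 0 were called. Cbl, a ubiquitin ligase that ends receptor signalling, had the smallest p there and stood at -0.11.

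Over the 105 receptor genes, pairs of arrays were alike within and between the groups. Across these genes, which cannot count as replicates, Pearson's r was 0.808 to 0.953 for pairs of transgenic arrays, 0.867 to 0.939 for wild-type pairs and 0.847 to 0.963 for mixed pairs. They are given as a description, since all arrays share their probes.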

How the data were processed

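RNA of 10 splenocyte samples was hybridised as 32P-labelled cDNA, per the labels' protocols. The deposited spot files hold intensity values: per the file headers, the mean grey level of each spot and of its local background, not normalized. Spot codes of other kinds were read from the deposited flag column, where code 0 was taken as found. Not given in the sources used here: what the codes mean, the exposure and the image's linearity. The authors' deposited table of processed values was taken as log2 from its range. No gene name could be matched to its 588 entries, and it served only for a count over all genes, and its scaling, centring and direction are unknown.

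Background was corrected with normexp (offset 50 grey levels, fitted on all spots, 126 unnamed ones included), gene spots were quantile normalized and the 2 spots of a gene averaged as log2 values. The group difference was fitted for all 597 genes in limma 3.58.1 and R 4.3.3 (lmFit and eBayes, two-sided, Benjamini-Hochberg, threshold 0.05). Each gene also had an exact permutation test, two-sided, on 120 splits, with 0.00833 as its smallest p. Figures used Python 3.11.15, pandas 2.3.3 and matplotlib 3.10.9. No header names a sitting. Arrays whose header hour lay 2 hours or more past the median hour were taken as the second sitting, without use of the date. The steps were tested on simulated data, where the share of false calls was near the threshold when few genes changed. When a large share of genes changed at once, quantile normalization made more of the calls false. The size of change that could have been missed is not given here.

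The members, classes, companion lists and markers were chosen with earlier results of these data known. Names were matched by hand to symbols of the RefSeq gene table of GRCm38.p6, which gave 92 of the 105 a symbol, and no coordinates were used. Traf3 was kept, since its name mentions CD40 only as a partner. Values per array are given for genes with an unadjusted limma p under 0.05, genes whose groups do not overlap, the smallest p of each class and, in classes of over 5 members, the 3 smallest. Some items are not reported here. The most variable genes, Cd44 and other members quoted by their difference alone were added after their values were seen. Alternatives covered normalization, background, offset, a filter on dim genes, sitting, array weights and left-out arrays.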

Additional observations from a re-analysis of the deposited data

Results flagged for a closer look

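For 12 of the 105 receptor genes, 1 transgenic array stood far outside the range of its group. The search was made for the receptor genes only, so whether this count is particular to them was not tested. The limit used would give about 5.25 such genes, or 1 in 20, if the values were normal and the genes independent. That was not tested, so the count of 12 is not weighed against it. The 3 wild-type arrays are too few for the search. On transgenic replicate 6, of the dim second sitting, Eps8 had a log2 signal of 6.49 against 5.90 to 6.09 on the others, Ptger4, a prostaglandin E2 receptor, 6.07 against 5.78 to 5.85, and the nuclear receptor Rora 6.04 against 5.72 to 5.84. On replicate 7, of the same sitting, Igf2r had 6.38 against 6.15 to 6.23. On replicate 4, the interleukin-3 receptor had 6.61 against 6.08 to 6.25, and the lymphotoxin beta receptor Ltbr 6.00 against 5.80 to 5.88.

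On replicate 2, Nr1h2 had 6.86 against 6.48 to 6.64, and Ccr1 5.93 against 5.70 to 5.76. On replicate 5, Epha3 had 5.80 against 5.71 to 5.75, and the nicotinic acetylcholine receptor 5.87 against 5.71 to 5.78. Grin2a had 5.84 on replicate 1 against 5.69 to 5.75. Kdr was the only one of the 12 with a low array, 5.81 on replicate 3 against 5.96 to 6.05. The part of array brightness in these values was not tested.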

How the results depend on the processing

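No receptor gene was called in any of the 20 alternatives of the receptor count, and 0 of all genes were called in any of 21, in which the lowest adjusted p of a receptor gene named for its p was 0.354 by limma. The receptor count at an unadjusted limma p under 0.05 ran from 0 to 7, where that of all genes ran from 24 to 53. The authors' deposited table gave 0 called genes and 31 of 588 at an unadjusted p under 0.05, and it was not run for the receptor genes. No paired analysis was possible because the labels name no pairing between the groups. Only the wild-type titles carry replicate numbers. The transgenic titles each carry a code, and the transgenic replicate numbers were assigned here. The receptor median, 0.006, moved to 0.065 with housekeeping centring and to -0.051 without background correction, was -0.0005 with the sitting as a block and -0.0024 in the first sitting alone, and ran from 0.002 to 0.013 when 1 array was left out. The median of all genes was 0.065 with housekeeping centring and -0.003 without background correction. The number above background on all 10 arrays fell from 68 to 13 at the stricter limit.

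Of 525 values of 25 genes under alternatives, 23 had the other sign, over 11 genes, and 18 of the 25 moved by over 1.5 times or turned when 1 array was left out. Without background correction the turned values were -0.057 for Mrc1, 0.024 for Cxcr4, -0.043 for Drd4, -0.067 for Gria1, -0.029 for Fgfr1 and -0.080 for Tnfrsf1b. With housekeeping centring they were 0.0046 for Calcr, 0.027 for Sla, 0.014 for Grin2b and 0.059 for Tnfrsf1a. Tnfrsf1a also turned with median centring (0.0084), cyclic loess (8.0e-05), the sitting as a block (0.0067), the first sitting alone (0.0084) and array weights (0.011), and Tnfrsf8 with the block (-0.00052) and the first sitting (-0.00094). Left-out arrays gave ranges across 0 of -0.080 to 0.0064 for Grin2b, -0.0042 to 0.092 for Tnfrsf1b, -0.043 to 0.018 for Tnfrsf1a and -0.011 to 0.035 for Tnfrsf8. The cause was not tested. Dim signal limits the comparison, since 32 receptor genes were above background on 5 to 9 arrays and 5 on fewer, and no comparison could be made within the second sitting.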
